A study of Mus musculus with 2 samples.

Results

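The genes described here are the 3 coreceptor genes of T cells, Cd4, Cd8a and Cd8b1, and 5 genes tied to the choice between the CD4 and the CD8 lineage, Zbtb7b, Runx3, Gata3, Tox and Cd40lg. They were picked by name, and all 8 were present among the 20282 genes of the count matrix. The matrix holds single-cell RNA sequencing of whole thymus, in which a unique molecular identifier (UMI) stands for 1 captured transcript. One library came from Cdc42f/f mice (WT) and the other from Cdc42f/f CD4Cre mice (KO), which lack the small GTPase Cdc42 in T cells. In each case 5 mice of 6 weeks were pooled before sequencing. Both groups carry the loxP-flanked Cdc42 alleles, and the WT mice carry no Cre. The Cre in the KO mice is driven by Cd4 regulatory sequence, so deletion begins when thymocytes start to express both coreceptors, and earlier cells keep the gene.

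CD4 and CD8 are surface receptors that hold the T cell receptor on class II and class I MHC and bring the kinase Lck to it. Thymocytes first lack both (double negative, DN), then carry both (double positive, DP), and after selection keep only one (single positive, SP). Zbtb7b encodes ThPOK, the zinc finger repressor required for the CD4 lineage, and Runx3 encodes the factor that silences Cd4 and maintains Cd8 transcription in the CD8 lineage. Gata3 and Tox act earlier on the CD4 side, and Cd40lg encodes the CD40 ligand, a helper molecule of CD4+ T cells.

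The WT library held 6115 cells and 29706197 UMIs, and the KO library 7568 cells and 37920214 UMIs. The median cell had 3192 UMIs in WT and 3401 in KO. Cells were grouped by the 19 clusters the authors deposited, which are called here by a leading gene. Clusters 0 to 4 (Rag1 clusters) were DP-like, with 5499.6 and 5191 CPM (UMIs of a gene or list per 1000000 UMIs of the group) of 5 DP markers in WT and KO. Clusters 5 and 9 (Cd5 clusters) had 2964 and 2475 CPM of 5 markers of receptor signalling. Cluster 6 (Itm2a cluster) kept such markers at 2468 and 3186 CPM and had few DP markers, and cluster 7 (Ms4a4b cluster) had 3246 and 4860 CPM of 6 markers of mature SP cells. These last 2 clusters are called the SP clusters. Because the clusters were built from all genes, these members included, differences between clusters are described and not tested. The targeted gene, Cdc42, was counted from the 3′ end, outside the deleted exon, so its level does not check the labels: it was 398 CPM in the library labelled WT and 356 CPM in that labelled KO. 17 cell barcodes occurred in both libraries, and 5 of their cells lay in the SP clusters. Leaving them out moved no member across the fold used below in the SP clusters.

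Cd8a and Cd8b1, the genes of the alpha and beta chains of CD8, lie close together on chromosome 6 (GRCm38). Cd8a spans 71373427 to 71379173 on the plus strand and Cd8b1 spans 71322788 to 71337494 on the plus strand, 35.9 kb apart with 4 predicted genes annotated between them. Cd4 lies on the same chromosome at 124864692 to 124888221 on the minus strand. The others lie elsewhere: Zbtb7b on chromosome 3 at 89377644 to 89394776 (minus), Runx3 on chromosome 4 at 135120652 to 135177990 (plus), Tox on chromosome 4 at 6686353 to 6991557 (minus), Gata3 on chromosome 2 at 9857078 to 9890034 (minus) and Cd40lg on chromosome X at 57212143 to 57224042 (plus). Antisense genes overlap Zbtb7b (Gm15417), Runx3 (Gm16224), Tox (Gm11802) and Gata3 (Gm13256) on the opposite strand. Gata3 also overlaps 9230102O04Rik on its own strand, so strand cannot tell the reads of that pair apart.

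The promoters below (RefSeq, GRCm38.p6, 5′ to 3′ on the strand of the gene, 250 bases before to 50 after the start) are shown because the factor made from Runx3 acts on Zbtb7b and on the coreceptor genes. The letters TGTGGT, the core that Runx factors read, and their reverse complement ACCACA were searched, and matches are in capitals. Of 32851 promoters of this length, 5506 (16.8%) hold such a match on either strand. Runx3 and Zbtb7b each have 2 listed promoters, of which the one with a match is printed, and the other held none.
Runx3, chr4:135120395-135120694, plus strand: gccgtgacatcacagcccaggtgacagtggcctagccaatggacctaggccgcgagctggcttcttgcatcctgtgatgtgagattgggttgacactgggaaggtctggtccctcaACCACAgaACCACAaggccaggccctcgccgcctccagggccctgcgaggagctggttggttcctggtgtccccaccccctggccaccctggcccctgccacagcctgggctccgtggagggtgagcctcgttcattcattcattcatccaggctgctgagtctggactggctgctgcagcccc
Zbtb7b, chr3:89387622-89387921, minus strand: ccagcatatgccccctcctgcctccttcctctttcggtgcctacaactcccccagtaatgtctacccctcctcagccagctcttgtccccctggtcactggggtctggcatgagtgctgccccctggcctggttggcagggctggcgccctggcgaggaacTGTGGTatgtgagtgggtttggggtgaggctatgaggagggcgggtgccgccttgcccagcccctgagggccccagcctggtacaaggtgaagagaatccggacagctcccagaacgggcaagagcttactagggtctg
Cd8a, chr6:71373177-71373476, plus strand: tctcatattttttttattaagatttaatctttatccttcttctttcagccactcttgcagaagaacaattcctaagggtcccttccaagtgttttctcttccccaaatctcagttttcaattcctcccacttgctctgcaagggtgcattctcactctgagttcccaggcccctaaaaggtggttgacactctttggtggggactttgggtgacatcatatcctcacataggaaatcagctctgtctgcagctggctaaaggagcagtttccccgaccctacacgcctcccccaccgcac
The Runx3 promoter held 2 matches, the Zbtb7b promoter held 1, centred upstream of the start, and the Cd8a promoter held none of these letters. The letters AGATAA and TTATCT, read by Gata factors and present in 11.2% of promoters, were in none of the 3. A match describes letters and says nothing of binding, which was not measured.

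Among the thymocyte stages Cd4 was highest in the Rag1 clusters and lowest in the proliferating clusters 12 and 11 and in the Trdc-led cells. It stood at 535 CPM (95% Poisson interval 521 to 549) in WT and 611 (599 to 623) in KO in the Rag1 clusters. These intervals, like all given here, cover counting error only, and since each condition has 1 library the spread between mice is unknown. Among the 4 proliferating clusters Cd4 ranged from 42.1 CPM in WT and 33.8 in KO (cluster 12) to 300.1 in WT and 314 in KO (cluster 13). It was lower in the Cd5 clusters, at 147 CPM in WT and 225 in KO. The Itm2a cluster had 179 CPM in WT and 276 in KO, and the Ms4a4b cluster 121 in WT and 179 in KO. In the Trdc-led cluster 14, whose gamma-delta and DN markers reached 2599 and 2767 CPM, Cd4 was 17.0 CPM in WT and 27.3 in KO, the lowest level among these groups. The Apoe-led macrophage-like cluster 16 also held Cd4, at 639 CPM in WT (27 UMIs in 30 cells) and 295 in KO (21 UMIs in 49 cells). Cluster 8, of low depth and with a median mitochondrial share of 18.6% in WT and 15.7% in KO, had 524 and 764 CPM and was not taken as a stage.

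Cd8a was likewise high in the Rag1 clusters and lower in the SP clusters. It was 1854 CPM in WT and 1965 in KO in the Rag1 clusters, 978 and 1114 in the Cd5 clusters, 376 and 320 in the Itm2a cluster, and 339 and 294 in the Ms4a4b cluster. Cd8b1 went from 3467 CPM in WT and 3632 in KO in the Rag1 clusters to 504 and 477 in the Itm2a cluster, then stood at 582 and 624 in the Ms4a4b cluster. Between the SP clusters Cd8b1 was thus higher in the later one in both libraries, while the intervals of Cd8a overlapped (355 to 399 and 316 to 364 in WT). Across 18 clusters of 50 or more cells, both libraries summed, the profiles of the 2 chains had a Pearson r of 0.986, and each was the gene most like the other among 10697 genes.

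The balance between the 2 chains moved with stage. There were 1.87 UMIs of Cd8b1 per UMI of Cd8a in WT and 1.85 in KO in the Rag1 clusters, 1.38 and 1.45 in the Cd5 clusters, and 1.34 and 1.49 in the Itm2a cluster. In the Ms4a4b cluster the ratio was 1.72 (1.57 to 1.88) in WT and 2.12 (1.94 to 2.33) in KO, and these intervals did not overlap. Of cells with a UMI of either chain, 97.9% in WT and 98.9% in KO had both in the Rag1 clusters, against 62.1% and 58.1% in the Ms4a4b cluster. Cells with Cd8b1 alone outnumbered cells with Cd8a alone there, 29.9% to 7.91% in WT and 37.2% to 4.65% in KO.

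**Figure D1:**
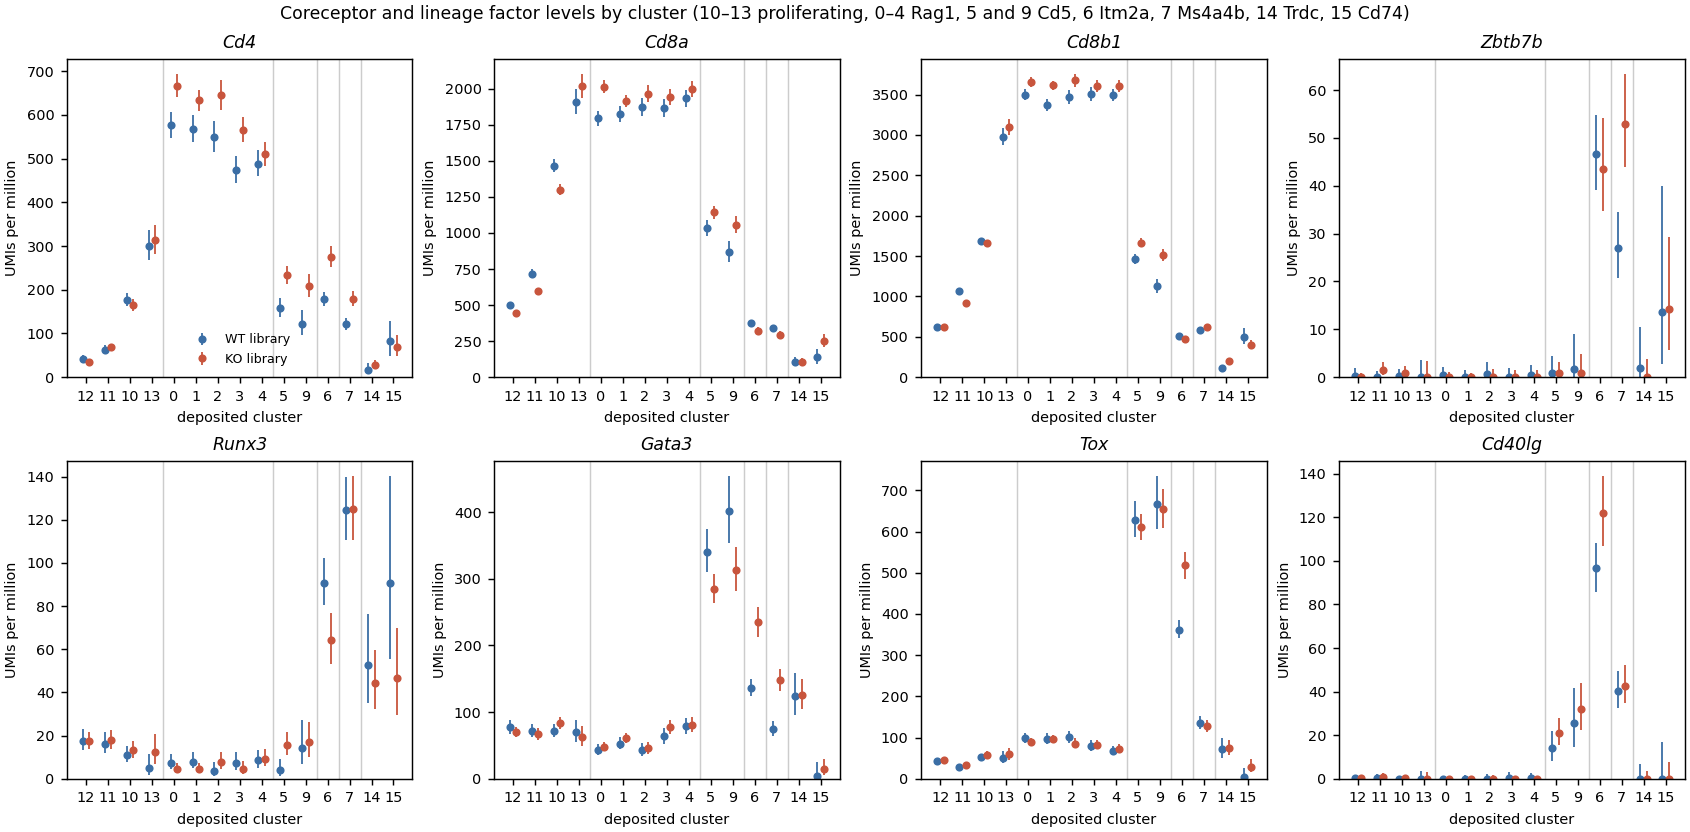
Level of each member, in CPM, in the deposited clusters ordered from proliferating cells through DP-like and SP clusters to the Trdc and Cd74 clusters, with 1 point per library (WT blue, KO red) and bars for exact 95% Poisson intervals. Cd4 is highest in clusters 0 to 4 (535 CPM in WT), the CD8 chains are highest there and in cluster 13, and Gata3 and Tox peak in clusters 5 and 9. Zbtb7b is high only in clusters 6 and 7, and Runx3 only from cluster 6 onward.

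Gata3 and Tox, the early factors of the CD4 side, were highest in the Cd5 clusters. Gata3, a zinc finger factor that acts upstream of Zbtb7b, was 55.9 CPM in WT and 61.6 in KO in the Rag1 clusters and 360 and 294 in the Cd5 clusters. It was 136 CPM in WT and 234 in KO in the Itm2a cluster and 74.3 and 147 in the Ms4a4b cluster. Gata3 was thus lower at each later stage in both libraries, with a lower peak and a higher end in KO. Tox, an HMG-box factor needed for CD4 lineage development, was 88.8 CPM in WT and 87.0 in KO in the Rag1 clusters and 642 and 625 in the Cd5 clusters. It was 362 CPM in WT and 518 in KO in the Itm2a cluster, and 136 and 127 in the Ms4a4b cluster, so the libraries differed at the step between. Gata3 was also present in the Trdc-led cluster, at 125 CPM in either library. Over the 18 clusters Gata3 and Tox had an r of 0.88.

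Zbtb7b was nearly absent before the SP clusters, and Cd40lg before the Cd5 clusters. Zbtb7b had 3 UMIs among 3636 WT cells and 0 among 4641 KO cells of the Rag1 clusters, and a count of 0 allows up to 3 UMIs. The Cd5 clusters had 2 UMIs of Zbtb7b in WT and 3 in KO. In the Itm2a cluster Zbtb7b was 46.5 CPM (39.2 to 54.8) in WT and 43.6 (34.7 to 54.1) in KO, found in 20.9% and 19.0% of cells. In the Ms4a4b cluster it was 27.1 CPM (20.8 to 34.6) in WT and 52.9 (43.9 to 63.3) in KO, so the level was lower than in the Itm2a cluster in WT and not in KO. Cd40lg had 2 UMIs in the WT cells of the Rag1 clusters and 0 in the KO cells. It appeared earlier than Zbtb7b, at 17.8 CPM in WT and 24.6 in KO in the Cd5 clusters, peaked at 96.7 and 122 in the Itm2a cluster, and stood at 40.4 and 42.8 in the Ms4a4b cluster.

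Runx3 was high only late. It was 7.09 CPM in WT and 5.86 in KO in the Rag1 clusters, and 7.33 (14 UMIs) and 16.1 (55 UMIs) in the Cd5 clusters. The Itm2a cluster had 90.8 CPM in WT and 64.3 in KO, and the Ms4a4b cluster 125 in either library. Outside these cells it was 52.8 CPM in WT and 44.4 in KO in the Trdc-led cluster and 90.9 and 46.6 in the Cd74-led, B-cell-like cluster 15. The 16 UMIs of Runx3 in the Apoe-led WT cells lay in 10.0% of 30 cells. Over the clusters Runx3 ran against the CD8 chains, with an r of -0.88 with Cd8a, although it maintains Cd8 transcription in CD8+ cells: the clusters with most Cd8a were the DP-like ones, where Runx3 was low. Runx3 and Zbtb7b, which oppose each other, had an r of 0.77 over the clusters, since both are high in the SP clusters, each of which mixes the 2 lineages. These correlations are over 18 clusters that share 2 libraries and are given as descriptions.

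By the same measure, the genes whose profile was most like each member were Arnt, Pptc7 and Lipa for Cd4 (r 0.964, 0.934 and 0.934), and Ntrk3 was, beside the partner chain, among the 3 for Cd8a (0.950) and for Cd8b1 (0.940). For Zbtb7b they were Ccr7, Tnfrsf4 and Gimap4 (0.943, 0.940 and 0.940), and for Runx3 Rnf213, Rtp4 and Pepd (0.949, 0.931 and 0.908). Gata3 was most like Ikzf2, Lef1 and Sh2d2a (0.937, 0.905 and 0.896), Tox most like Lef1os1, St3gal2 and Egr1 (0.954, 0.953 and 0.953), and Cd40lg most like Izumo1r, Tagap and Cd160 (0.989, 0.951 and 0.948). Izumo1r encodes folate receptor 4 and Tnfrsf4 encodes OX40, which are both markers of CD4+ cells. The other genes named, Cd160 among them, were not assigned to a lineage here. Since the SP clusters mix the lineages, a similar profile over clusters does not tie a gene to either lineage.

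The clusters do not separate the CD4 from the CD8 lineage, so the coreceptor UMIs of each cell were used to sort it as Cd4 only, Cd8 only (either chain), both or neither. In the Rag1 clusters 74.5% of WT cells (exact binomial interval 73.0 to 75.9) and 82.2% of KO cells (81.1 to 83.3) had both, the rest were nearly all Cd8 only, and 0 cells were Cd4 only. In the Cd5 clusters 31.6% of WT cells (27.7 to 35.7) and 46.3% of KO cells (42.9 to 49.7) had both, and Cd4-only cells made up 0.935% and 2.25%. Cells with Cd4 and no Cd8 were thus rare in both groups. These shares depend on depth: the median cell of the Rag1 clusters had 2823 UMIs in WT and 3097 in KO, and of the Cd5 clusters 3402 and 3775. With each cell thinned to 1000 UMIs, the share with both was 40.0% (38.4 to 41.7) in WT and 43.2% (41.8 to 44.7) in KO in the Rag1 clusters and 11.7% (9.05 to 14.7) and 15.3% (12.9 to 17.9) in the Cd5 clusters, where the intervals then overlapped. Cd4-only cells then made up 0.333% and 0.216% of the Rag1 clusters. Since 0 cells were Cd4 only as deposited, these are cells whose Cd8 UMIs were lost in the thinning.

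In the Itm2a cluster 27.1% of 479 WT cells were Cd4 only, 29.0% Cd8 only, 27.8% (23.8 to 32.0) both and 16.1% neither. Among 316 KO cells the shares were 24.7%, 20.6%, 42.4% (36.9 to 48.1) and 12.3%. In the Ms4a4b cluster 22.9% of 332 WT cells were Cd4 only, 31.9% Cd8 only, 21.4% (17.1 to 26.2) both and 23.8% neither, against 22.7%, 24.5%, 29.8% (25.3 to 34.6) and 23.0% of 396 KO cells. The share with both was higher in KO in each, with intervals that overlapped only in the Ms4a4b cluster, and that of Cd8-only cells was lower, while Cd4-only shares lay within each other's intervals. At 1000 UMIs a cell the Cd8-only shares were 29.2% and 28.9% in the Itm2a cluster and 32.6% and 29.3% in the Ms4a4b cluster, so the lower share in KO was not seen in the former and lay within overlapping intervals in the latter. The Cd4-only share was then higher in KO in the Itm2a cluster, at 19.0% (14.9 to 23.8) against an interval of 9.70 to 15.8 in WT, and it was 10.9% in WT and 8.33% in KO in the Ms4a4b cluster. The share with both was higher in KO in Itm2a-cluster cells, with medians of 5714 UMIs in WT and 5363 in KO, and in the Ms4a4b cluster where KO cells were shallower, with 5032 against 6738.

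Free RNA and doublets can also give a cell UMIs of both coreceptors. In the Cd74-led cluster, whose B-cell markers summed to 3664 CPM in WT and 38514 in KO and dendritic cell markers to 2259.5 and 1431, 9.52% of 63 WT cells and 16.1% of 87 KO cells had both, at medians of 1202 and 4284 UMIs. With each cell thinned to 1000 UMIs and shallower cells left out, 2.94% of 34 WT cells (0.0744 to 15.3) and 2.63% of 76 KO cells (0.320 to 9.18) of that cluster had both. B cells should lack both coreceptors, but with so few cells, and dendritic cell markers among them, this sets no firm background. At this depth the share was 5.22% (3.41 to 7.61) in WT and 8.57% (5.72 to 12.2) in KO in the Itm2a cluster, and 2.11% (0.854 to 4.31) and 5.56% (3.51 to 8.29) in the Ms4a4b cluster, with WT and KO intervals that overlapped in each and values within the intervals of the Cd74-led cells. The 5 DP markers, Rag1 and Arpp21 among them, were concentrated in the cells with both, where they summed to 542 CPM in WT and 709 in KO in the SP clusters, against 35.6 and 45.2 in Cd4-only cells and 71.7 and 210 in Cd8-only cells. All 5 markers were above 0 in each of these classes. Without SP cells that had a UMI of any of them, a choice made after seeing the data, the share with both was 22.4% in WT and 35.7% in KO in the Itm2a cluster and 16.9% and 19.8% in the Ms4a4b cluster.

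**Figure D2:**
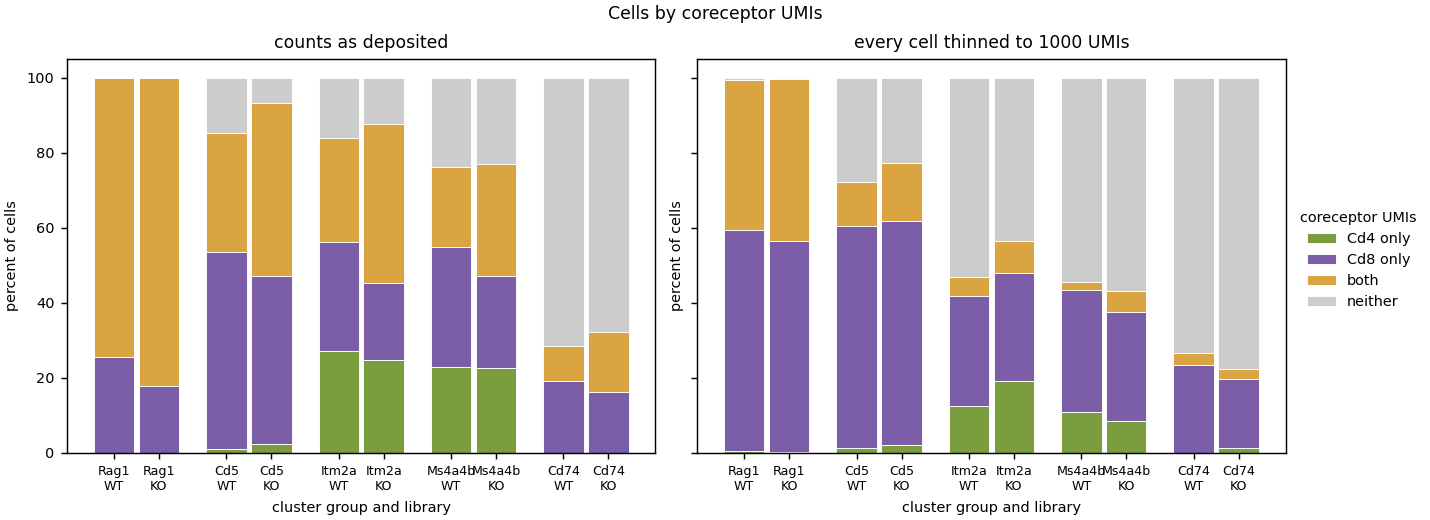
Percent of cells with UMIs of Cd4 only, Cd8a or Cd8b1 only, both or neither, as stacked bars for 5 cluster groups in each library, with the counts as deposited on the left and each cell thinned to 1000 UMIs on the right. Cells with both make up 74.5% in the Rag1 clusters and 27.8% in the Itm2a cluster in WT, and the KO bar is higher in each cluster group as deposited.

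Within single SP cells Zbtb7b and Runx3, the factors of opposite lineages, were found together less often than their separate shares would give. Each SP cell was thinned to 2000 UMIs, which left 801 WT and 707 KO cells, and the joint count was set beside the product of the 2 genes' shares. Zbtb7b and Runx3 met in 2 WT cells and 2 KO cells, where the product of shares gives 9.37 and 7.84. Without thinning they met in 25 WT cells and 25 KO cells, against products of 47.8 and 43.8. Cd4 and Runx3 met in 9 WT cells, against a product of 34.1, and in 18 KO cells, against 30.2. Cd8a and Zbtb7b had an odds ratio of 0.34 in WT and 0.24 in KO, and Cd8a and Cd40lg 0.22 and 0.18. In WT each pair of Cd8a, Cd8b1 or Runx3 with Cd4, Zbtb7b, Gata3, Tox or Cd40lg was below the product of its shares. In KO this did not hold for Cd4 with Cd8b1 (odds ratio 1.02) and Cd8a with Tox (1.04), and Runx3 with Gata3 was at 0.99. At the deposited depth, which varies between cells, Tox with Cd8a (1.06) and with Cd8b1 (1.12) was above the product in WT. In KO the pairs then above it were Cd8a with Tox (1.53), Cd4 with Cd8b1 (1.16), Runx3 with Gata3 (1.11) and with Tox (1.10), and Cd4 with Cd8a (1.01).

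Pairs from the same lineage were mixed. Of WT cells with Cd8a, 80.5% had Cd8b1, against 20.2% of cells without Cd8a, and in KO 76.1% against 23.5%. Cd8a and Runx3 had an odds ratio of 2.83 in WT and 1.85 in KO, Gata3 and Cd40lg 2.52 and 1.98, and Gata3 and Tox 1.51 and 1.36. Zbtb7b and Cd40lg met in 16 WT cells, above the product of 7.16, and in 7 KO cells, near the product of 6.26. Zbtb7b and Gata3 were slightly below the product, with odds ratios of 0.91 in WT and 0.81 in KO. So were Zbtb7b with Tox (0.89) and Cd4 with Cd40lg (0.86) in KO, and Cd4 with Gata3 was at 1.04 and 1.01. These values rest on 1 draw of UMIs and moved with depth. At the deposited depth Zbtb7b with Gata3 was at 1.81 in WT and 1.42 in KO, and Cd4 with Gata3 at 1.95 and 1.45. In KO, Cd4 with Cd40lg was then at 2.19 and Zbtb7b with Cd40lg at 2.12, while Zbtb7b with Tox stayed below, at 0.74. In thinned cells Cd4 and Cd8a had an odds ratio of 0.43 in WT and 0.87 in KO, so in KO they were found together nearly as often as the product gives. Cells of 1 library share their source, and these odds ratios are descriptions.

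Next, the Cd4-only SP cells (206 in WT, 168 in KO) were set against the Cd8-only SP cells (245 and 162) by summed counts. Cd40lg and Zbtb7b were higher in Cd4-only cells and Runx3 was higher in Cd8-only cells in both libraries. Zbtb7b was 64.7 CPM in Cd4-only and 10.3 in Cd8-only cells of WT, a log2 ratio of 2.62 (1.91 to 3.47), and 76.5 and 25.7 in KO, a log2 ratio of 1.55 (0.88 to 2.32). Cd40lg was 129 and 14.3 CPM in WT and 150 and 30.1 in KO, with log2 ratios of 3.14 (2.56 to 3.83) and 2.29 (1.71 to 2.96). Runx3 was 45.8 CPM in Cd4-only and 208 in Cd8-only cells of WT and 38.8 and 167 in KO, with log2 ratios of -2.17 (-2.59 to -1.79) and -2.10 (-2.68 to -1.58). Runx3 and Zbtb7b, whose promoters are shown above, were thus higher in opposite classes. Any tie between the promoter letters and these levels was not tested.

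Gata3 separated the classes in WT and less so in KO. It was 122 CPM in Cd4-only and 42.4 in Cd8-only cells of WT, and 223 and 162 in KO, with log2 ratios of 1.52 (1.12 to 1.94) and 0.46 (0.15 to 0.78). The difference lay mostly in the Cd8-only cells, whose Gata3 level in KO was above that of the WT Cd4-only cells. With each cell thinned to 2000 UMIs the Gata3 ratio in WT was 0.93, and with cells sorted on at least 2 UMIs of their coreceptor the ratio in KO was 1.16, so each then lies on the other side of the fold of 1 used next. Tox was close in the 2 classes, with log2 ratios of 0.48 (0.27 to 0.70) in WT and 0.36 (0.10 to 0.62) in KO. With 1 as the log2 ratio that counts as past the fold, 3 of 5 factors were higher in Cd4-only cells in WT (Zbtb7b, Gata3 and Cd40lg), where 3.03% of all 8658 genes with 20 or more UMIs were higher by as much. In KO 2 of 5 were higher (Zbtb7b and Cd40lg), where 2.25% of 7650 genes were. Runx3 was the only one of the 5 lower by this fold in either library, where 2.93% of genes were lower in WT and 2.48% in KO.

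Among 2933 genes with 50 or more UMIs in each library and the same direction in both, ranked by the smaller of the 2 ratios, Cd40lg ranked 1 and Zbtb7b 5 of those higher in Cd4-only cells. Between them stood Tnfrsf4 (2.12 as the smaller log2 ratio), Izumo1r (1.83) and Sytl2 (1.60), and after them Gpr183 (1.52), Itm2a (1334 against 379 CPM in WT) and Tmem64 (1.39). Runx3 ranked 5 of those higher in Cd8-only cells, after Gzma (-3.60), Nkg7 (-3.24), Ccl5 (-2.51) and Trdc (-2.11) and before Plac8 (-1.88), Cyth4 (-1.57) and Arpp21 (-1.54). Gzma and Nkg7 encode a granzyme and a granule protein of cytotoxic cells. The Ccl5 ratio rests on few cells. It was found in 2.91% of Cd4-only and 3.27% of Cd8-only cells in WT, and in 0.595% and 1.85% in KO. Trdc encodes the constant region of the T cell receptor delta chain, and the 5 gamma-delta and DN markers summed to 65.4 CPM in WT and 243 in KO in Cd8-only cells, against 40.7 and 59.2 in Cd4-only cells, with all 5 above 0 in each. Without cells that had a UMI of Trdc, Trgc1 or Trgc2, a choice made after seeing the data, the Gata3 ratio was 1.59 in WT and 0.44 in KO, about as with them.

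**Figure D3:**
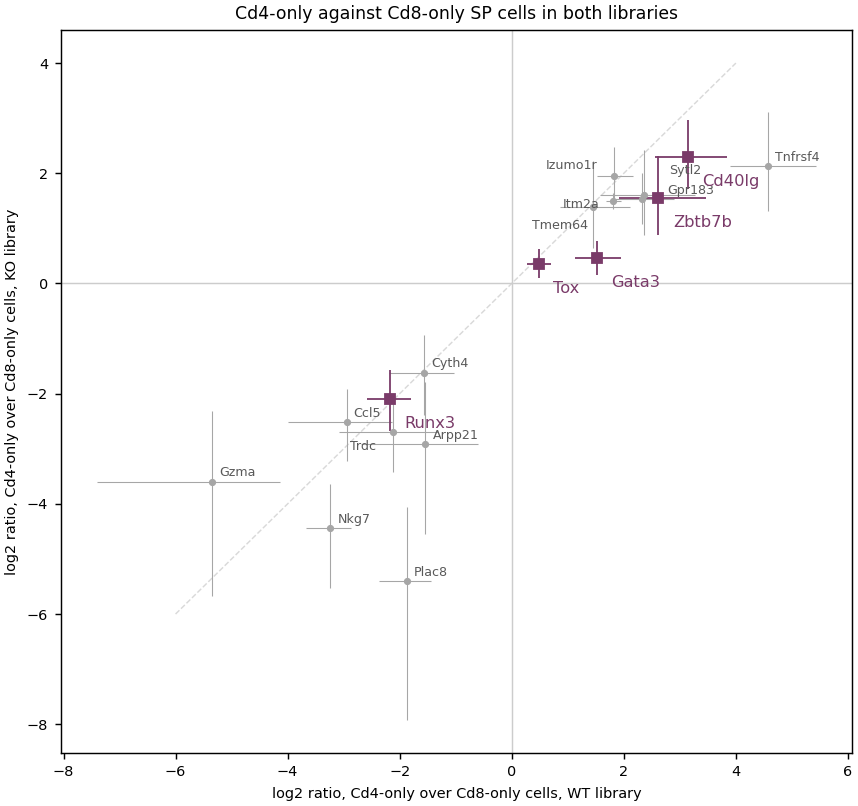
Log2 ratio of Cd4-only over Cd8-only SP cells in the WT library (horizontal) and the KO library (vertical) for the 5 lineage factors (squares) and the 8 top-ranked genes each way (grey, the members among them as squares). Bars are 95% counting intervals and the dashed line marks equal ratios. Gata3 lies at 1.52 in WT and 0.46 in KO, below the dashed line, and Runx3 lies near it.

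Levels were then compared between the libraries at each stage, a log2 ratio of KO over WT of at least 0.5 either way counting as past the fold. In the Rag1 clusters 0 of the 6 members with 20 or more UMIs passed, and 7.44% of all 12983 genes were higher and 3.08% lower by that much. The ratios were 0.19 for Cd4, 0.08 for Cd8a, 0.07 for Cd8b1, 0.14 (-0.01 to 0.29) for Gata3, -0.03 for Tox and -0.28 for Runx3. The 2 members under 20 UMIs were Zbtb7b and Cd40lg. In the Cd5 clusters 2 of 7 were higher, Cd4 at 0.62 (0.42 to 0.82) and Runx3 at 1.10 (0.27 to 2.09, from 14 and 55 UMIs), and 0 were lower, where 9.38% of all 9854 genes were higher and 4.88% lower. Gata3 was lower by less than the fold, at -0.29 (-0.43 to -0.15), and Tox was at -0.04. Cd4 was higher in KO in cluster 5 (159 CPM in WT, 233 in KO) and in cluster 9 (122 and 208) alike.

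In the SP clusters Gata3 was higher in KO. In the Itm2a cluster the members past the fold were Gata3 at 0.78 (0.59 to 0.98), Cd4 at 0.63 (0.45 to 0.80) and Tox at 0.52 (0.39 to 0.64), 3 of 8, all higher. Among all 9790 genes 15.8% were higher and 6.68% lower by the fold, and the median gene was at 0.16. Runx3 was at -0.49 (-0.82 to -0.18), Cd8a at -0.23 (-0.38 to -0.09), Cd8b1 at -0.08, Zbtb7b at -0.09 (-0.50 to 0.31) and Cd40lg at 0.34 (0.08 to 0.59). In the Ms4a4b cluster 3 of 8 were again higher and 0 lower: Gata3 at 0.99 (0.72 to 1.26), Zbtb7b at 0.96 (0.52 to 1.43) and Cd4 at 0.56 (0.34 to 0.79). There 27.0% of all 9586 genes were higher and 7.03% lower, and the median gene was at 0.24. Runx3 was at 0.00 (-0.24 to 0.24), Cd8a at -0.21 (-0.36 to -0.06), Cd8b1 at 0.10, Tox at -0.10 and Cd40lg at 0.08.

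The scaling moves these counts. Among calls over all genes, 70.3% were higher for the Itm2a cluster and 79.4% for the Ms4a4b cluster, against 42.3% and 46.3% with TMM factors. Less the median of all genes, Gata3 was at 0.63 in Itm2a-cluster cells and 0.75 in Ms4a4b-cluster cells, and Zbtb7b at 0.72 in the latter, all past the fold. Cd4, at 0.47 and 0.33, and Tox, at 0.36 in the Itm2a cluster, were then under it, and Runx3 passed it downward in the Itm2a cluster at -0.65. Over the alternatives tried, Gata3 stayed between 0.61 and 0.95 in the Itm2a cluster and between 0.73 and 1.16 in the Ms4a4b cluster, Zbtb7b between 0.70 and 1.04 in the latter, while Cd4 in the Ms4a4b cluster ranged from 0.11 (cells thinned to 1000 UMIs) to 0.63.

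**Figure D4:**
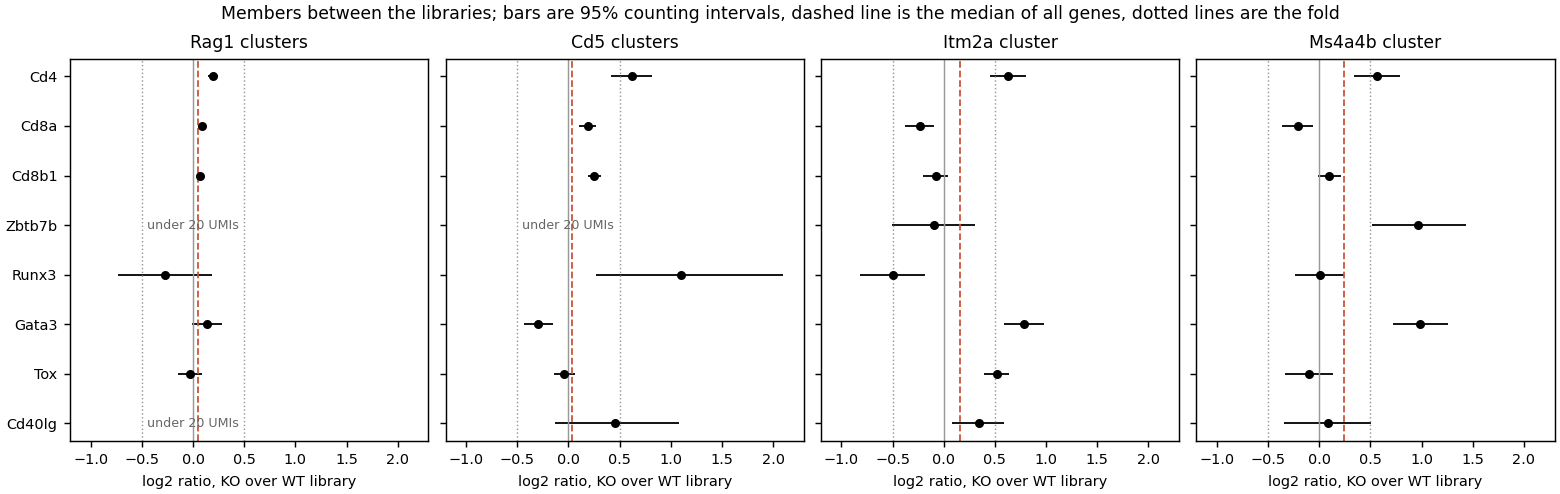
Log2 ratio of the KO over the WT library for each member in 4 cluster groups, with bars for 95% counting intervals, dotted lines at the fold of 0.5 either way and a dashed line at the median of all genes. Gata3 lies at -0.29 in the Cd5 clusters and at 0.78 and 0.99 in the SP clusters, and members under 20 UMIs are marked.

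Markers of other cells moved with these ratios. The 5 DP markers summed to 170 CPM in WT and 239 in KO in the Itm2a cluster and to 182 and 431 in the Ms4a4b cluster, and the gamma-delta and DN markers to 41.3 and 76.5 and to 169 and 329, with all 5 of each list above 0 in both libraries. NKT cell markers were lower in KO, at 22.6 and 11.2 CPM in the Itm2a cluster and 78.6 and 47.6 in the Ms4a4b cells, and in the former their defining factor Zbtb16 was at 0 in KO. Without SP cells holding a UMI of a DP marker, 7 of 8 members passed the fold in the Itm2a cluster in place of 3, where 17.4% of all genes were higher and 7.68% lower under this setting: Cd4, Gata3, Tox and Cd40lg were higher, and Cd8a, Cd8b1 and Runx3 (-1.15) were lower. In the remaining cells Gata3 was at 0.82 in the Itm2a cluster and at 1.11 among Ms4a4b-cluster cells, as large as in all cells. Without cells holding a UMI of Trdc, Trgc1 or Trgc2 it was at 0.73 and 1.16. Both choices were made after seeing the data.

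Within the coreceptor classes, Gata3 was higher in the KO library in most of them. In Cd4-only cells it was 137 CPM in WT and 271 in KO in the Itm2a cluster, a log2 ratio of 0.98 (0.62 to 1.35), and 96.4 and 169 in the Ms4a4b cluster, a ratio of 0.81 (0.27 to 1.37). In Cd8-only cells it was 48.6 and 234 CPM in the Itm2a cluster, a ratio of 2.26 (1.73 to 2.82), and 35.5 and 115 in the Ms4a4b cluster, a ratio of 1.68 (1.03 to 2.38). The intervals spanned 0 in the cells with both coreceptors of the Itm2a cluster, where it was 231 CPM in WT and 210 in KO, at -0.14 (-0.45 to 0.17), and in the cells with neither of the Ms4a4b cluster, where it was 121 and 150 CPM, at 0.30 (-0.20 to 0.82). The difference was thus present in Cd4-only and in Cd8-only cells, and in each cluster it was wider in the latter. Cd8-only cells were shallower in KO, with medians of 4713 UMIs against 5813 in the Itm2a cluster and 4737 against 7182.5 in the Ms4a4b cluster. A shallower cell more easily shows no Cd4 UMI, so the make-up of this class may differ between the libraries. These ratios were not repeated with thinned cells.

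Runx3 differed between the libraries in Itm2a-cluster cells and not detectably in Ms4a4b-cluster cells. In Cd8-only cells of the Itm2a cluster it was 207 CPM in WT (192 UMIs) and 90.1 in KO (32 UMIs), a ratio of -1.18 (-1.79 to -0.66), and in the Ms4a4b cluster 208 and 218, a ratio of 0.07 (-0.28 to 0.42). In cells of the Itm2a cluster with both coreceptors it was instead higher in KO, 35.4 CPM in WT and 78.5 in KO, at 1.14 (0.49 to 1.85). Cd40lg in the Cd8-only cells of the Itm2a cluster was 11.9 CPM in WT (11 UMIs) and 59.2 in KO (21 UMIs), at 2.29 (1.20 to 3.52), the level in Cd4-only cells being 169 and 210. In Cd8-only cells of the Ms4a4b cluster Cd40lg was 17.1 CPM in WT (14 UMIs) and 11.1 in KO (6 UMIs), so the direction was not shared. Zbtb7b in Cd4-only cells was 79.8 CPM in WT and 75.4 in KO in the Itm2a cluster, and 38.1 and 77.7 in the Ms4a4b cluster, at 1.01 (0.18 to 1.92) there. Cd8a in Cd8-only cells was lower in KO in either cluster, at -0.53 (-0.75 to -0.32) and -0.52 (-0.73 to -0.32), while Cd8b1 was at -0.34 (-0.53 to -0.15) and 0.00. Cells with both coreceptors ran the other way, with Cd8a at 0.26 (0.04 to 0.48) in the Itm2a cluster. Those of the Ms4a4b cluster had Cd8a at 0.64 (0.37 to 0.91) and Cd8b1 at 0.48 (0.30 to 0.66). In Cd8-only cells DP and gamma-delta markers were higher in KO and depth was lower, as given above, but these traits were not particular to them. In the SP clusters the gamma-delta and DN markers were also higher in KO in cells with both (41.7 and 110 CPM) and with neither (313 and 601). In the Ms4a4b cluster Cd4-only cells were shallower in KO too, with medians of 6364 and 4686 UMIs. How far cells with such markers, or the lower depth, take part in the Runx3 and Cd40lg differences was not tested.

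**Figure D5:**
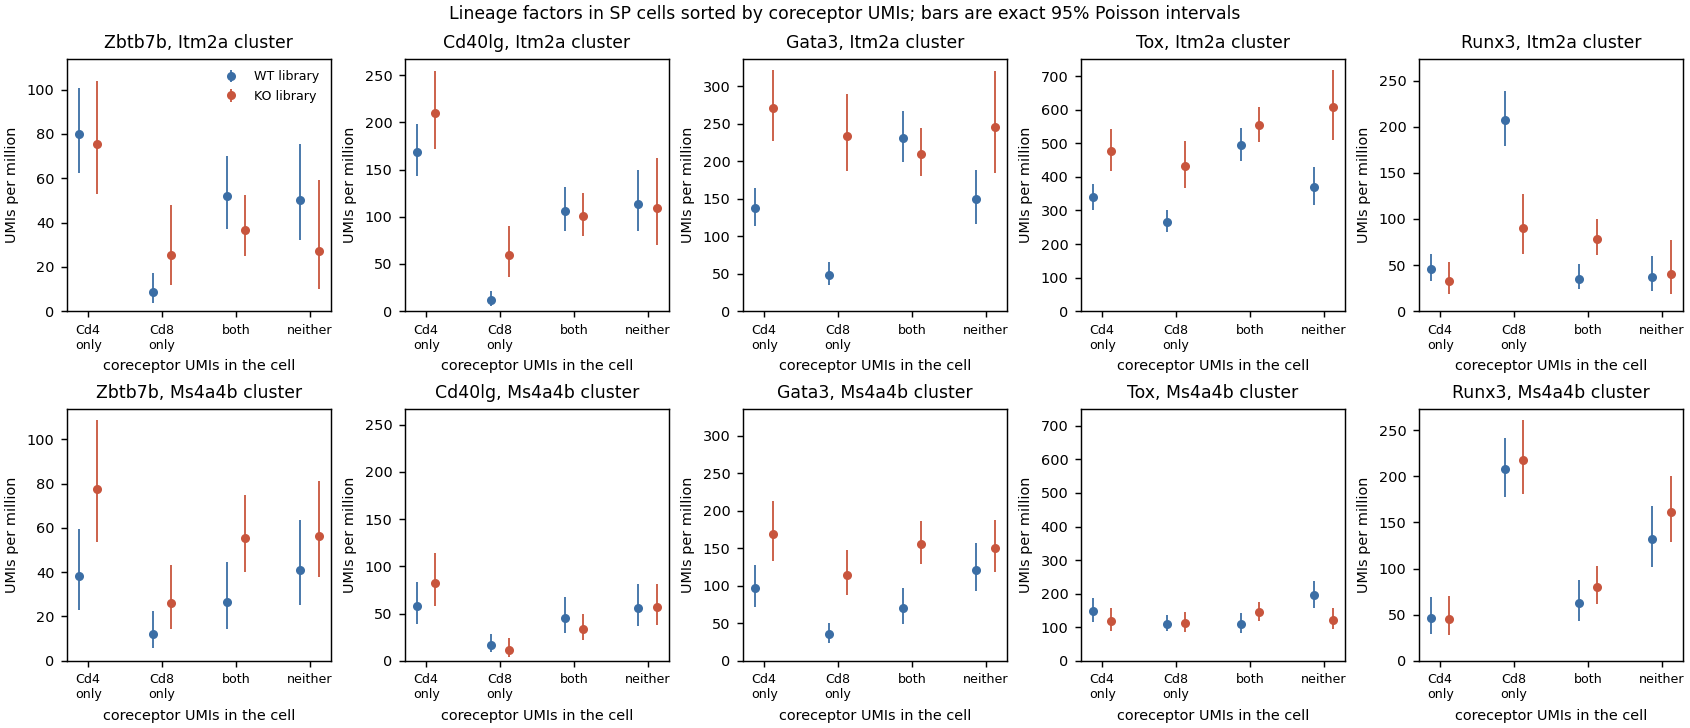
Level of the 5 lineage factors, in CPM, in SP cells sorted by their coreceptor UMIs, for the Itm2a cluster (top) and the Ms4a4b cluster (bottom), with 1 point per library and bars for exact 95% Poisson intervals. Gata3 in Cd8-only cells is at 48.6 in WT and 234 in KO in the Itm2a cluster, and Runx3 in those cells is at 207 and 90.1.

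The wider network of lineage regulators moved little before the SP clusters. A list of 24 regulators and partners of these genes (among them Runx1, Cbfb, Tcf7, Lef1, Bcl11b and Satb1) had 0 members past the fold either way in the Rag1 and in the Cd5 clusters, with medians of -0.03 and -0.04 beside 0.05 and 0.04 for all genes. Of all genes 7.44% were higher and 3.08% lower in the former, and 9.38% and 4.88% in the latter. One step later, in the Itm2a cluster, 1 of 24 was higher, Myb at 0.61 (0.32 to 0.89), and 0 were lower, with a median of 0.20, where 15.8% of all genes were higher and 6.68% lower. In the Ms4a4b cluster 9 of 24 were higher and 1 lower, with a list median of 0.37 beside 0.24 for all genes, of which 27.0% were higher and 7.03% lower. The 9 included Zbtb7a (0.71), Runx1 and Tcf12 (0.67 each), Ets1 (0.64), Ikzf1 (0.59), Cbfb (0.57), the partner subunit of Runx proteins, and Tcf7 (0.54). Less the median of all genes Zbtb7a, the highest of them, was at 0.47, so none of the 9 passed the fold on that scale. The lower one was Id2 at -0.83 (-1.05 to -0.61), an inhibitor of E proteins, which stood at 203 CPM in WT and 114 in KO.

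Genes known from mature CD4+ cells were mostly lower in KO in the SP clusters. Of 6 tested, 4 were lower and 0 higher in the Itm2a cluster, and 4 lower and 2 higher in the Ms4a4b cluster, with medians of -0.81 and -1.15. Over all genes 15.8% were higher and 6.68% lower in the former and 27.0% and 7.03% in the latter, so the share higher in the Ms4a4b cluster is near that of all genes. Tnfrsf4 was at -1.64 (-2.02 to -1.29) and -1.77 (-2.20 to -1.37), and Icos, a costimulatory receptor, at -0.74 and -1.85. Izumo1r was at 0.35 (0.15 to 0.54) in the Itm2a cluster and at -2.06 (-2.45 to -1.70) in the Ms4a4b cluster, and the 2 higher there were Il6ra (1.42) and St8sia6 (1.34). Regulatory T cells also carry several of these. Their 5 markers summed to 438 CPM in WT and 231 in KO in the Ms4a4b cluster, and the defining one, Foxp3, had 58 UMIs there in WT and 0 in KO, which allows up to 3. In the Itm2a cluster the sums were 461 and 440 CPM, with 1 UMI of Foxp3 in WT and 0 in KO. Their part in these differences was not tested. In the Cd5 clusters Izumo1r was higher, at 0.67 (0.24 to 1.15), the only one of 2 tested past the fold. Of all genes there, 9.38% were higher and 4.88% lower. In the Rag1 clusters 2 of 4 tested were higher, where 7.44% of all genes were higher and 3.08% lower. The rest of the 6 had under 20 UMIs, so these counts rest on few genes.

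Genes known from CD8+ and cytotoxic cells were mostly lower in KO in the Itm2a cluster. In the Itm2a cluster 6 of 8 were lower and 2 higher, with a median of -1.22, against 6.68% of all genes lower and 15.8% higher. Itgae, the alpha E integrin, had 45 UMIs in WT and 3 in KO, Klrd1 had 41 and 0, Nkg7 was at -1.26 (-1.67 to -0.87) and Ctsw at -1.18 (-1.56 to -0.82), and the higher ones were Xcl1 (0.71) and Prf1 (0.55). In the Ms4a4b cluster 3 of 11 were higher, Xcl1 (1.52), Dapl1 (1.45) and Ccl5 (0.66), and 3 were lower, Itgae (-0.84), Nkg7 (-0.55) and Eomes (-0.53). The list median was -0.30, and the count higher matches the 27.0% of all genes (7.03% were lower). Xcl1 and Ccl5 lay in few cells. Among the 162 Cd8-only SP cells of KO, their 110 and 140 UMIs lay in 2.47% and 1.85% of cells. Of the few tested before the SP clusters, 2 of 3 were higher and 1 lower in the Rag1 clusters and 0 of 2 passed in the Cd5 clusters. Of all genes 7.44% were higher and 3.08% lower in the former, and 9.38% and 4.88% in the latter. The rest of the 11 had under 20 UMIs, so these counts rest on few genes.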

How the data were processed

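Whole thymus of 6-week-old mice was profiled by 3′ single-cell RNA sequencing, with 5 mice pooled into 1 library per condition. The deposited matrix holds UMI counts per gene and cell, which the authors made with Cell Ranger 3.0.2 and STAR on mm10 and filtered in Seurat (submitters' processing notes and the study's methods). They kept cells with 200 to 6000 genes and up to 50000 reads. The annotation version was not given in the sources used here. Cluster numbers (resolution 1.5) came from the deposited metadata, whose mitochondrial percent is 0 in every cell and was recomputed from 34 mitochondrial genes. Each cell's condition was read from its name, where Cdc45 stands in place of the Cdc42 of the labels. The matrix holds fewer cells than the study states.

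Counts were summed per library and cluster group and given as CPM, per 1000000 UMIs. With 1 library per condition no test was made. Intervals are 95% (exact Poisson for CPM, exact Clopper-Pearson for shares, conditional binomial for ratios) and cover counting error only. Log2 ratios used 0.5 added counts and genes with 20 or more UMIs over both sides, and a log2 of 0.5 between libraries or 1 between coreceptor classes counted as past the fold. Beside the members, the genes of fixed lists past the fold were named, with the 8 genes each way ranked highest between classes and the 3 genes per member with the most similar profile, by Pearson correlation of log2(CPM + 10) over clusters of 50 or more cells among genes with 200 or more UMIs. The members and lists were chosen with earlier results of these data known. One gene that the rule on similar profiles selects is not reported here. The doublet caller scrublet marked 2 of 6115 and 0 of 7568 cells and was not relied on, so doublets were kept, and the 6% of cells with the highest scores were left out as an alternative. Of 20282 gene names, 19797 matched GENCODE vM21, which gave the positions. Python 3.11.15, numpy 2.4.6, scipy 1.17.1, pandas 2.3.3, scanpy 1.11.5, R 4.3.3 and, for TMM factors, edgeR 4.0.16 were used, and the scripts were tested on simulated data.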

Additional observations from a re-analysis of the deposited data

Results flagged for a closer look

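For 3 members the ratio of KO over WT pointed opposite ways at 2 stages, with counting intervals on opposite sides of 0. Each condition has 1 library, and these differences between stages were not tested.

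Gata3 was lower in KO in the Cd5 clusters and higher in both SP clusters, so its log2 ratio in the Cd5 clusters minus that in the Itm2a cluster was -1.08, and minus that in the Ms4a4b cluster -1.28. Runx3 was higher in KO in the Cd5 clusters, on 14 and 55 UMIs, and lower in the Itm2a cluster, a difference of 1.59. Cd8a was slightly higher in KO before the SP clusters and lower in them. Its differences were 0.32 (Rag1 clusters minus Itm2a cluster), 0.29 (Rag1 clusters minus Ms4a4b cluster), 0.42 (Cd5 clusters minus Itm2a cluster) and 0.40 (Cd5 clusters minus Ms4a4b cluster). For Cd8a, each ratio by itself was under the fold of 0.5.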

How the results depend on the processing

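No paired analysis was possible because each condition has 1 library, and for the same reason no replicate could be left out. Of the alternatives for counts of members, class contrasts and shares of cells, 151 stayed close to the value reported, 21 moved and 0 reversed, and of those for single genes 499 stayed close, 47 moved and 0 reversed. Ratios less the median of all genes, and leaving out cells with DP marker UMIs, with Trdc, Trgc1 or Trgc2 UMIs, or with a barcode found in both libraries, were chosen after seeing the data.

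With no minimum of UMIs, 2 members passed the fold in the Rag1 clusters in place of 0, Zbtb7b and Cd40lg, both on 3 UMIs or fewer. Without cells holding DP marker UMIs, 7 passed in the Itm2a cluster, where 17.4% of all genes were higher and 7.68% lower. The Zbtb7b contrast between classes in WT was 1.89 with cells thinned to 2000 UMIs, 4.05 with a sort on at least 2 UMIs and 1.61 in the Ms4a4b cluster alone, and in KO it was 2.65 with the stricter sort. The Runx3 contrast was -3.25 in WT with thinned cells and -1.45 in KO in the Itm2a cluster alone. The share of cells with both coreceptors depended most on depth. Thinned to 2000 UMIs it was 9.89% in WT and 18.2% in KO in the Itm2a cluster and 5.52% and 12.7% in the Ms4a4b cluster. With at least 2 UMIs of each it was 8.56% and 19.9%, and 7.23% and 12.9%. Without cells holding DP marker UMIs it was 22.4% and 35.7%, and 16.9% and 19.8%. Without the highest scrublet scores it was 23.4% in KO in the Ms4a4b cluster, inside the WT interval of 17.1 to 26.2 as deposited. That WT interval was taken with the high-scoring cells kept. The WT share without them is not given here, so the libraries are not compared under this setting. The share was higher in KO than in WT under each of the paired values given here, which leave out the scrublet setting. Why these values moved was not tested, beyond the fewer UMIs or cells that each setting leaves.

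Among single genes, Gata3 in both SP clusters and Zbtb7b in the Ms4a4b cluster were past the fold under 16 of 16 alternatives, Cd4 under 13 of 16 in the Itm2a cluster and 11 of 16 in the Ms4a4b cluster, and Tox in the Itm2a cluster under 7 of 16. Less the median of all genes, 44.6% of calls in the Itm2a cluster, 49.2% in the Ms4a4b cluster and 60.7% in the Rag1 clusters (70.7% before) were higher in KO. The main limit is that mice were pooled, so the spread between animals is unknown.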
